A study of Mus musculus with 12 samples.

Results

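The 10 genes described here, Stab1, Stab2, Lyve1, Clec4g, Fcgr2b, Oit3, Dnase1l3, Kdr, Pecam1 and Ptprb, are markers of the endothelial cells that line the sinusoids, the capillaries of the liver. They were chosen by gene symbol among 41128 genes of the count table, and all 10 passed the filter on low counts among both the hepatocyte and the liver libraries. The RNA came from 12 libraries in 5 groups of mice. All 6 hepatocyte libraries came from the line labelled Lats1tm1.1Jfm/RjoJ; Lats2tm1.1Jfm/RjoJ, titled wild type. The sources used here do not give whether Cre was present. Of these, 3 libraries held hepatocytes of untreated animals and 3 held peritumoral hepatocytes, from livers in which tumours had grown for 8 weeks after hydrodynamic injection of SB11 (1 µg), myc-NICD (20 µg) and myr-ha-Akt (4 µg). Peritumoral mice were injected at 8 weeks, which is also the age every label gives, so this group may be older. The other 6 libraries came from CD-1 IGS mice: 2 controls, 2 taken 24 h and 2 taken 48 h after 1 intraperitoneal injection of thioacetamide (TAA), a liver toxin. Sample labels describe all 12 as hepatocytes selected on Percoll, whereas the design text of the series speaks of livers for the TAA experiment, and that word is used below.

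Sinusoidal endothelium differs from other capillaries in having open pores and no continuous basement membrane, and it clears macromolecules from blood through scavenger receptors, lectins and Fc receptors. Its growth and identity depend on VEGF signalling, on angiopoietin signalling through Tek and on BMP9. The markers fall into a clearance group (the scavenger receptors Stab1 and Stab2, the hyaluronan receptor Lyve1, the lectin Clec4g and the inhibitory Fc receptor Fcgr2b), 2 genes for secreted proteins (Oit3, and Dnase1l3, a nuclease that degrades extracellular DNA) and a vessel group (the VEGF receptor Kdr, the junction protein Pecam1 and the phosphatase Ptprb, which acts on Tek). Several are not exclusive to this cell type: Stab1, Lyve1 and Fcgr2b are also known from macrophages, Fcgr2b from B cells, Lyve1 from lymphatic vessels, and Pecam1 from all endothelium and platelets. Hepatocytes are not known as a main source of any of them, so in the libraries labelled as purified hepatocytes they are markers of another cell type. In bulk RNA, more cells of a type and more RNA per cell cannot be told apart.

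On GRCm38 with GENCODE release M21, the markers lie on 7 chromosomes, all in protein-coding genes: Stab1 at chr14:31139013-31168641, Stab2 at chr10:86841198-87008025, Lyve1 at chr7:110850607-110863239, Clec4g at chr8:3707064-3720651, Fcgr2b at chr1:170958617-170976547, Oit3 at chr10:59422958-59441778, Dnase1l3 at chr14:7964533-7994573, Kdr at chr5:75932827-75978458, Pecam1 at chr11:106654217-106750628 and Ptprb at chr10:116275523-116389535. Ptprb is on the plus strand and the other 9 are on the minus strand. Exons of Clec4g overlap those of Gm16553 on the opposite strand over 5.93% of their length, and overlaps of Fcgr2b, Stab2 and Stab1 with other genes cover 2.68%, 1.61% and 1.09%. Whether strand was used in the counting is not stated in the sources used here.

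RefSeq's promoter table for GRCm38.p6 held 5 of the 10 genes: Clec4g, Fcgr2b, Kdr, Stab1 and Stab2. Of the 3 comparisons with an untreated or control group, Stab1 rose in all, Clec4g in 1 and Kdr in 2. The 250 bases upstream of the start are shown for these genes. All 3 are written 5′ to 3′ on the gene's own minus strand, at chr14:31168642-31168891, chr8:3720652-3720901 and chr5:75978456-75978705. Capitals mark matches on either strand to TGCTGA (a half-site of MAF factors), GGAAGT (a core of sites for ETS factors) or AGATAA (a form of the site from which the GATA family is named). All 3 families have known endothelial roles.
Stab1: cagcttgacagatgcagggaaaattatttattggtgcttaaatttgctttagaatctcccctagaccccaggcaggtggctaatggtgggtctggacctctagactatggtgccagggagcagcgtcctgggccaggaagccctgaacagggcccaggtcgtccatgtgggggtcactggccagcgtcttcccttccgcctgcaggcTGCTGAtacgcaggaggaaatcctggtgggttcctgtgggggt
Clec4g: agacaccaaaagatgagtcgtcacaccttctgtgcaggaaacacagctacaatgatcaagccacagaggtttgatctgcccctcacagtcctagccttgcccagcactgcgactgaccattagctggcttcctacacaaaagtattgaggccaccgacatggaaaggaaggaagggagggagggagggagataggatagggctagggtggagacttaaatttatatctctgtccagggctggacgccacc
Kdr: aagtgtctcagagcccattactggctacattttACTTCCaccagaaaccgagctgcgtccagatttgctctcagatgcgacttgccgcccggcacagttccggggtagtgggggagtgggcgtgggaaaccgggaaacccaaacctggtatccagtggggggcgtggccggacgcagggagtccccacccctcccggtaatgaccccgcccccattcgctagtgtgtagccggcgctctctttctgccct
Stab1 held 1 TGCTGA, 43 bases before the start, Kdr held 1 GGAAGT on the opposite strand, 217 bases before it, and Clec4g held none of these words. Over the 5 entries, GGAAGT was in 2, AGATAA in 0 and TGCTGA in 1. Of 32851 promoter entries in the table, 19.7%, 9.99% and 16.1% held them. These are matches of letters, not sites shown to be bound.

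Total counts ran from 16228747 to 18522324 in the hepatocyte libraries and from 9640845 to 13692235 in the livers. Peritumoral replicate 2 stood apart: it had 527.5 RPM (counts scaled to the library total) of Xist and 0 of Ddx3y, while the other 5 hepatocyte libraries had 0 to 0.183 RPM of Xist and 59.7 to 75.5 of Ddx3y. All 6 livers had Xist, at 196.4 to 455.8 RPM, and no Ddx3y. Marker calls in the peritumoral comparison are therefore also given without replicate 2. Results of the other gene lists, ratios and correlations include it. Levels below are CPM, which are RPM further scaled by TMM factors, fold changes are log2 ± SE, and adjusted p-values are those of edgeR (quasi-likelihood, Benjamini-Hochberg over all genes tested); a gene is said to have risen or fallen where that p was under 0.05. The labels do not state that each library is a separate animal, so the tests weigh a difference only against the spread among libraries, part of which may be technical.

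All 10 markers were detected in every library, with the lowest value, 33 counts, for Lyve1 in a control liver. Their summed level was 301.6, 396.3 and 234.1 RPM in untreated hepatocytes (replicates 1 to 3) and 1317, 1402 and 1993 RPM in peritumoral hepatocytes. It was 220.3 and 182.7 RPM in control livers, 572.1 and 420.3 RPM at 24 h and 708.8 and 519.2 RPM at 48 h. The untreated libraries labelled as hepatocytes thus held more marker RNA, as a share of all counts, than the control livers did, at the narrowest 234.1 against 220.3 RPM. With all 12 libraries TMM-scaled together, the means of Stab2 and Kdr were lower in untreated hepatocytes than in control livers. Means of the other markers were higher. Summed hepatocyte markers were 97890 to 98880 RPM in untreated hepatocytes and 181900 to 186300 RPM in control livers. Mouse stock, Xist and Ddx3y levels and, by the series design, preparation differ between the hepatocyte and liver experiments, so the sources of that difference cannot be told apart.

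**Figure D1:**
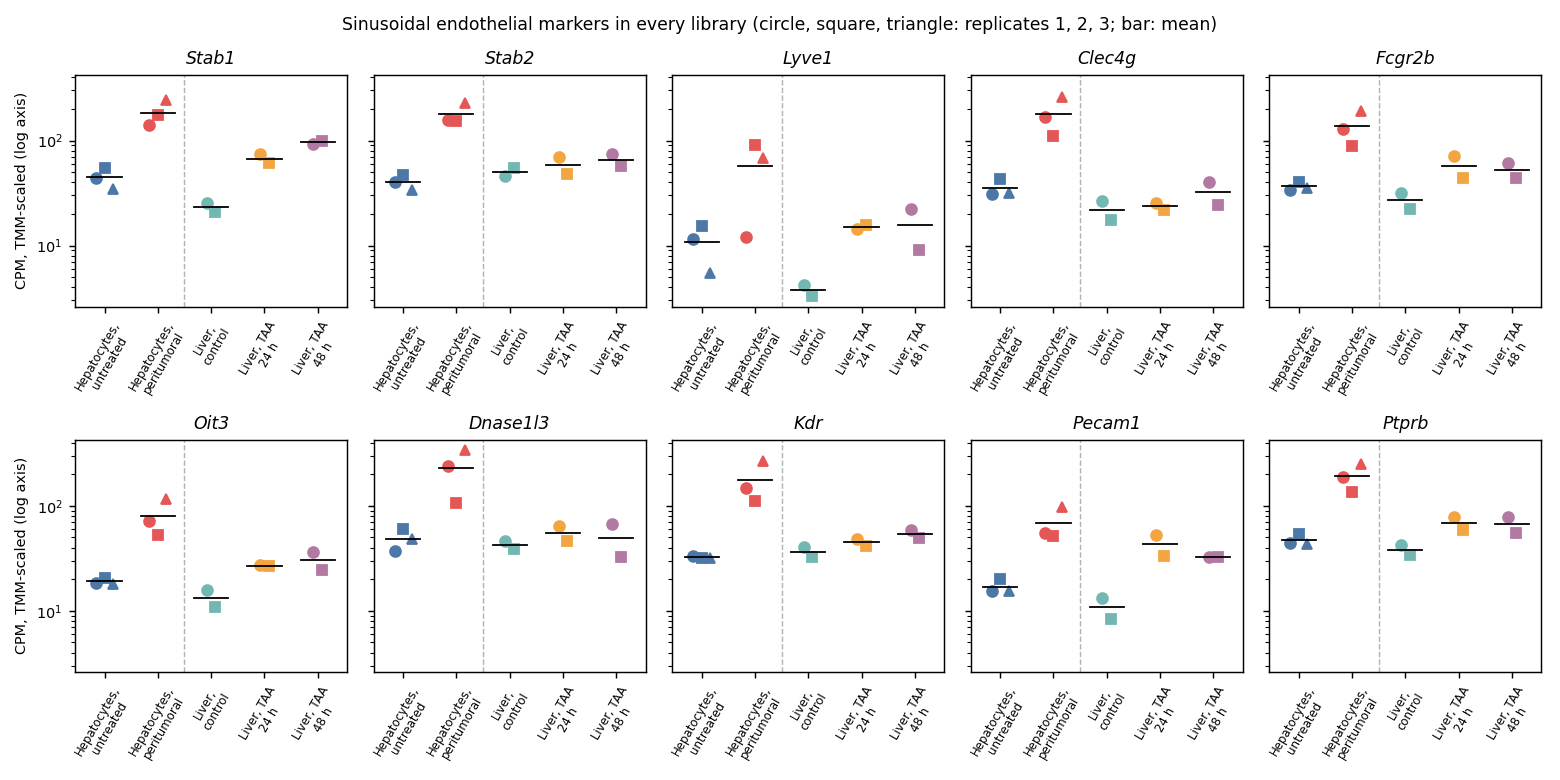
Level of each of the 10 markers in every library (points, by replicate; black bars, group means), as TMM-scaled CPM on a log axis, with the dashed line between hepatocyte and liver libraries, which were scaled in separate fits. Peritumoral points lie above all untreated points for every gene except Lyve1, whose peritumoral replicate 1 was at 12.1 CPM.

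In peritumoral against untreated hepatocytes all 10 markers rose, by 1.89 to 2.44 on the log2 scale, or 3.72-fold to 5.44-fold. The median was 2.12, beside -0.02 over all 13442 genes tested, of which 19% were called higher. In 9 of 10 markers the 3 peritumoral libraries lay above all 3 untreated ones, as they did in 25% of all genes. Without peritumoral replicate 2, 9 of 10 remained called, all but Lyve1. For that fit the share of all genes called higher is not given, so the count cannot be set against it.

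Among the clearance genes, Stab1 was at 44.2, 55.0 and 34.5 CPM in untreated and at 140.3, 174.0 and 240.8 CPM in peritumoral hepatocytes (replicates 1 to 3). The groups did not overlap, and Stab1 rose by 2.05 ± 0.27 (adjusted p = 0.00443). Its relative Stab2, the main hyaluronan scavenger of the sinusoid, was at 40.0, 46.8 and 34.0 CPM against 156.3, 154.3 and 228.7 CPM. It rose by 2.16 ± 0.22 (adjusted p = 0.00329), the smallest p among the 10 markers. The lectin Clec4g was at 31.2, 43.0 and 31.7 CPM in untreated and at 167.3, 111.7 and 257.6 CPM in peritumoral libraries, again without overlap. Its rise was 2.34 ± 0.33 (adjusted p = 0.00527). Fcgr2b, which takes up small immune complexes in the sinusoid, had 33.5, 40.7 and 35.7 CPM in the untreated group. Peritumoral libraries had 128.9, 88.2 and 191.6 CPM of it, a rise of 1.89 ± 0.29 (adjusted p = 0.00632).

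Lyve1 was the exception in its spread. It was at 11.7, 15.4 and 5.51 CPM in untreated hepatocytes and at 12.1, 90.1 and 68.0 CPM in the peritumoral group. Peritumoral replicate 1 therefore lay inside the untreated range, and the other 2 libraries were well above it. The fitted rise was 2.38 ± 0.73, with an adjusted p of 0.0493 just under the threshold. The call was lost in 12 of 16 alternative analyses, where the adjusted p ran up to 0.143, among them edgeR's legacy quasi-likelihood method (0.0506), the omission of peritumoral replicate 2 (1.91, adjusted p = 0.116) or of any untreated library. With DESeq2 the adjusted p was 0.00289, and without peritumoral replicate 1 it was 0.00934 in edgeR.

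The secreted-protein genes differed in spread mainly among untreated libraries. There the SD was 7.31% of the mean for Oit3 and 23.5% for Dnase1l3, and among peritumoral libraries it was 40.2% and 51.0%. Oit3 was at 18.5, 20.8 and 18.2 CPM against 72.5, 53.1 and 116.5 CPM, a rise of 2.07 ± 0.30 (adjusted p = 0.00539). Dnase1l3 was at 37.4, 60.4 and 48.8 CPM in untreated and at 238.8, 106.1 and 337.6 CPM in peritumoral hepatocytes. It had the highest mean of the 10 in the peritumoral group, 227.5 ± 116.1 CPM (SD, n = 3), and its rise was 2.22 ± 0.43 (adjusted p = 0.0124). The lowest peritumoral library was 1.76-fold above the highest untreated one. The call was lost without untreated replicate 1 (2.09, adjusted p = 0.0622).

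In the vessel group Kdr had the largest fold change of the 10 and the tightest untreated values. It was at 33.0, 32.2 and 31.7 CPM in untreated and at 147.7, 112.3 and 267.4 CPM in peritumoral hepatocytes. The rise was 2.44 ± 0.33 (adjusted p = 0.00466), and the lowest peritumoral library was 3.40-fold above the highest untreated one. Pecam1, found on all endothelium, went from 15.5, 20.1 and 15.6 CPM to 55.4, 51.8 and 97.7 CPM, a rise of 2.0 ± 0.29 (adjusted p = 0.00541). Ptprb went from 44.4, 54.1 and 43.2 CPM to 189.1, 135.5 and 251.7 CPM, a rise of 2.02 ± 0.25 (adjusted p = 0.00423). Peritumoral replicate 3 was the highest peritumoral library for 9 of the 10 markers, the exception being Lyve1.

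Markers of other cell types moved in the same comparison. Of 12 Kupffer cell and macrophage markers 11 rose, with a median of 3.24, and their summed level was 281.1 to 499.5 RPM in untreated and 1964 to 5475 RPM in peritumoral libraries. Of 10 stellate cell and fibroblast markers 8 rose, from 52.7 to 125.3 RPM summed to 713.4 to 1858 RPM. Of 6 bile duct markers 5 rose, with a median of 6.38, from 33.3 to 50.5 RPM summed to 749.3 to 10110 RPM, the latter in replicate 2. The 10 hepatocyte markers had a median of -0.61, and the smallest adjusted p among them was 0.0856, for the transcription factor gene Hnf4a (-0.78 ± 0.29). Their summed level did not fall throughout: it was 97890 to 98880 RPM in untreated libraries. In peritumoral replicates 1 to 3 it was 113100, 82000 and 143400 RPM. B cell markers summed to 0.246 to 0.415 RPM in untreated and 1.71 to 5.38 RPM in peritumoral libraries, with no gene at 0 in all libraries, and T and NK cell markers to 0.237 to 0.308 and 0.488 to 2.63 RPM. Both lists were low and higher in every peritumoral library. At the narrowest, T and NK cell markers had 8 counts in peritumoral replicate 1 against 5, 4 and 5 in untreated libraries. No gene of either list passed the filter, so none was tested. Of 5 neutrophil markers 4 passed the filter and 3 rose, from 1.54 to 3.68 RPM summed to 10.8 to 23.1 RPM. Of 5 platelet markers 2 passed and both rose, from 2.28 to 3.26 RPM summed to 10.2 to 15.1 RPM. The part of these cells in the values of any marker, Stab1, Lyve1 and Fcgr2b among them, was not tested.

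**Figure D2:**
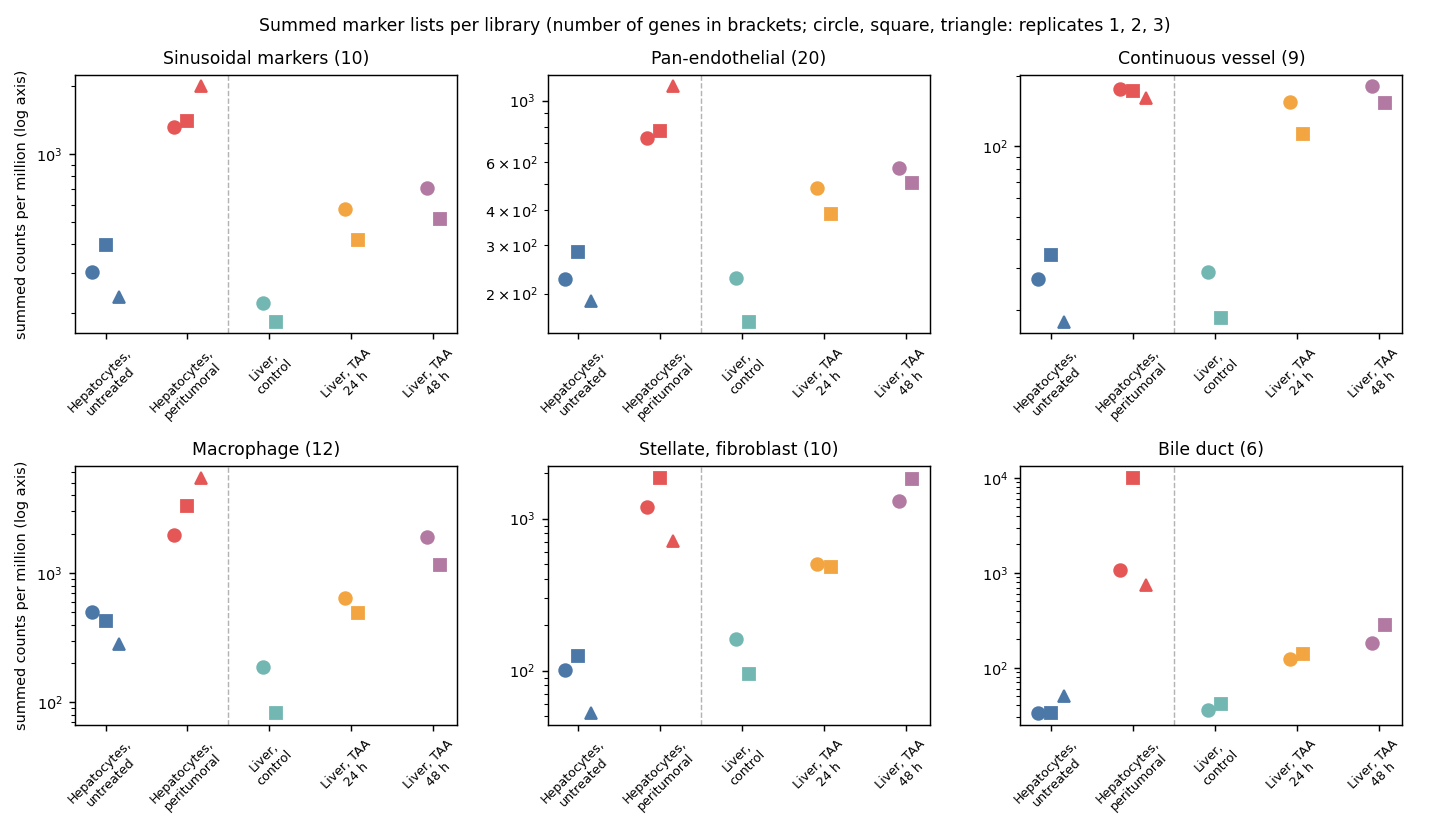
Summed RPM of 6 marker lists in every library, on log axes. The sinusoidal markers are higher in all 3 peritumoral than in all 3 untreated libraries (1317 to 1993 against 234.1 to 396.3 RPM), and so are the 5 other lists.

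After TAA the markers divided. At 24 h 6 of 10 rose, with a median of 0.93 over the 10, beside 0.02 over all 13497 genes tested, of which 21.3% were called higher. At 48 h 7 of 10 rose, with a median of 0.88, beside -0.03 over all genes, of which 25% were called higher. None fell at either time by edgeR, also at an unadjusted p under 0.05, or by DESeq2. Both times were compared with the same 2 control livers. Both TAA libraries lay above both controls for 8 of 10 markers at 24 h, where 38.3% of all genes did, and for 8 of 10 at 48 h, where 37.5% did. Pecam1, Lyve1 and Stab1 had the largest fold changes at both times, and Stab2, Clec4g and Dnase1l3 did not pass the test at either.

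Stab1 was at 25.7 and 20.8 CPM in control livers, at 74.3 and 60.6 CPM at 24 h and at 93.0 and 99.7 CPM at 48 h. None of the 3 groups overlapped. It rose by 1.54 ± 0.16 at 24 h (adjusted p = 0.000982) and by 2.05 ± 0.16 at 48 h (adjusted p = 0.000329). Lyve1 was at 4.23 and 3.31 CPM in controls, at 14.3 and 15.8 CPM at 24 h and at 22.3 and 9.07 CPM at 48 h. All 4 TAA libraries were above the controls, and the 48 h pair differed more from each other than the 24 h pair did. The rise was 1.99 ± 0.42 at 24 h (adjusted p = 0.0110) and 2.05 ± 0.42 at 48 h (adjusted p = 0.00768). Pecam1 was at 13.4 and 8.42 CPM in controls, at 52.9 and 33.5 CPM at 24 h and at 32.3 and 33.0 CPM at 48 h. It rose by 1.98 ± 0.29 at 24 h (adjusted p = 0.00288) and by 1.58 ± 0.29 at 48 h (adjusted p = 0.00477).

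Fcgr2b, Oit3 and Ptprb rose by smaller amounts. Fcgr2b was at 31.7 and 22.4 CPM in controls, at 72.1 and 43.7 CPM at 24 h and at 60.7 and 44.5 CPM at 48 h, rising by 1.1 ± 0.29 (adjusted p = 0.0245) and 0.96 ± 0.29 (adjusted p = 0.0328). Oit3 was at 15.7 and 10.9 CPM in controls, at 27.3 and 26.6 CPM at 24 h and at 36.4 and 24.4 CPM at 48 h. Its rise was 1.02 ± 0.25 at 24 h (adjusted p = 0.0184) and 1.19 ± 0.25 at 48 h (adjusted p = 0.00808). Ptprb was at 42.0 and 34.4 CPM in controls, at 77.6 and 58.6 CPM at 24 h and at 77.5 and 55.6 CPM at 48 h. It rose by 0.83 ± 0.22 (adjusted p = 0.0226) and 0.80 ± 0.22 (adjusted p = 0.0217). In these 3 genes every TAA library was above every control.

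Kdr passed at 1 time only. It was at 40.5 and 32.4 CPM in controls, at 48.6 and 41.1 CPM at 24 h and at 59.1 and 49.9 CPM at 48 h. The change was 0.30 ± 0.17 at 24 h (adjusted p = 0.192) and 0.58 ± 0.17 at 48 h (adjusted p = 0.0276). The difference between the 2 times did not pass the test (0.28 ± 0.17). Of the 3 genes that did not pass at either time, Stab2 was at 45.6 and 54.6 CPM in controls, at 70.2 and 47.5 CPM at 24 h and at 74.6 and 56.8 CPM at 48 h. Its changes were 0.23 ± 0.23 (adjusted p = 0.437) and 0.39 ± 0.23 (adjusted p = 0.195). Clec4g was at 26.3 and 17.3 CPM, 25.4 and 22.0 CPM, and 40.6 and 24.3 CPM in the same order, so that all 3 groups overlapped. Its changes were 0.12 ± 0.29 (adjusted p = 0.770) and 0.57 ± 0.29 (adjusted p = 0.149). Dnase1l3 was at 46.0 and 39.0 CPM in controls, 63.8 and 46.5 CPM at 24 h and 66.8 and 33.0 CPM at 48 h, changes of 0.38 ± 0.33 (adjusted p = 0.386) and 0.23 ± 0.33 (adjusted p = 0.592).

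These counts depend on single libraries and on scaling. Without control replicate 2 the calls were 2 of 10 at 24 h and 3 of 10 at 48 h, and without the first TAA library of each time they were 3 and 4. Stab1 and Pecam1 kept their calls in all 14 alternatives at each time, and Oit3 did at 48 h. Scaled by library totals alone, 8 markers were called at 24 h and all 10 at 48 h, where Stab2 changed by 1.11 (adjusted p = 0.00662), Clec4g by 1.29 (adjusted p = 0.00979) and Dnase1l3 by 0.95 (adjusted p = 0.0457). That scaling moved the median of all genes from 0.02 to 0.53 at 24 h and from -0.03 to 0.68 at 48 h. With it, 83.3% and 88.8% of all calls over the table were higher, against 51.0% and 51.1% in the main analysis. In fits with a library left out, a single library remained in that group. The share of all genes called higher is not given for those fits or for scaling by library totals alone. Marker counts of either cannot be set against it.

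**Figure D3:**
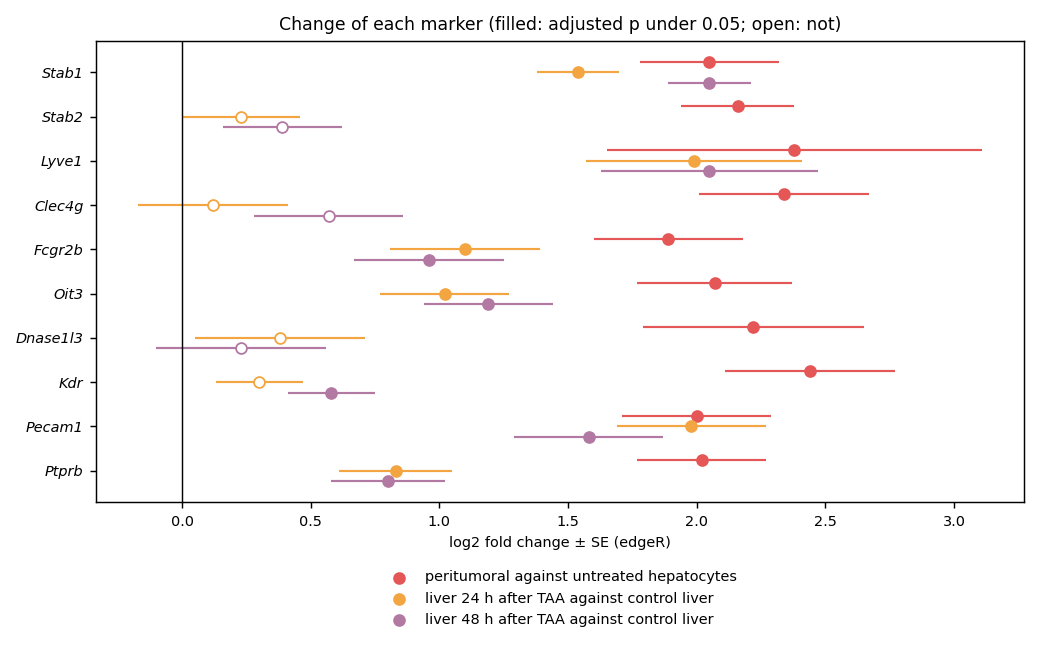
Log2 fold change ± SE of each marker in the 3 comparisons with an untreated or control group. Filled points have an adjusted p under 0.05 and open points do not. The peritumoral changes lie between 1.89 and 2.44, and those after TAA between 0.12 and 2.05.

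Between 24 h and 48 h none of the 10 markers passed the test by edgeR, and 7.33% of all genes did in either direction. At an unadjusted p under 0.05 there was 1, Stab1 (0.51 ± 0.16, adjusted p = 0.0931). DESeq2 called it as well (0.54, adjusted p = 0.0495), as did scaling by library totals (0.71, adjusted p = 0.0399). The other 9 changes lay between -0.40 for Pecam1 and 0.45 for Clec4g.

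Ratios of 2 markers within a library do not depend on scaling. Stab1 had 1.11, 1.18 and 1.02 counts per Stab2 count in untreated hepatocytes and 0.897, 1.13 and 1.05 in peritumoral ones, so these groups overlapped. In control livers the ratio was 0.563 and 0.382, at 24 h 1.06 and 1.27 and at 48 h 1.25 and 1.76. All 4 TAA livers were above both controls. Clec4g had 2.01, 2.14 and 2.04 counts per Pecam1 count in untreated hepatocytes, 3.02, 2.16 and 2.64 in peritumoral ones and 1.96 and 2.06 in control livers. After TAA it had 0.479 and 0.657 at 24 h and 1.26 and 0.737 at 48 h, below every other library. Lyve1 counts were 29.2%, 32.8% and 16.2% of Stab2 counts in untreated and 7.71%, 58.4% and 29.7% in peritumoral hepatocytes, the widest range of any group. In control livers they were 9.28% and 6.06%, at 24 h 20.4% and 33.1% and at 48 h 29.8% and 16%. For a ratio, an exact permutation test cannot give a two-sided p below 0.333 with 2 libraries against 2, or below 0.1 with 3 against 3, so no test was run on them.

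**Figure D4:**
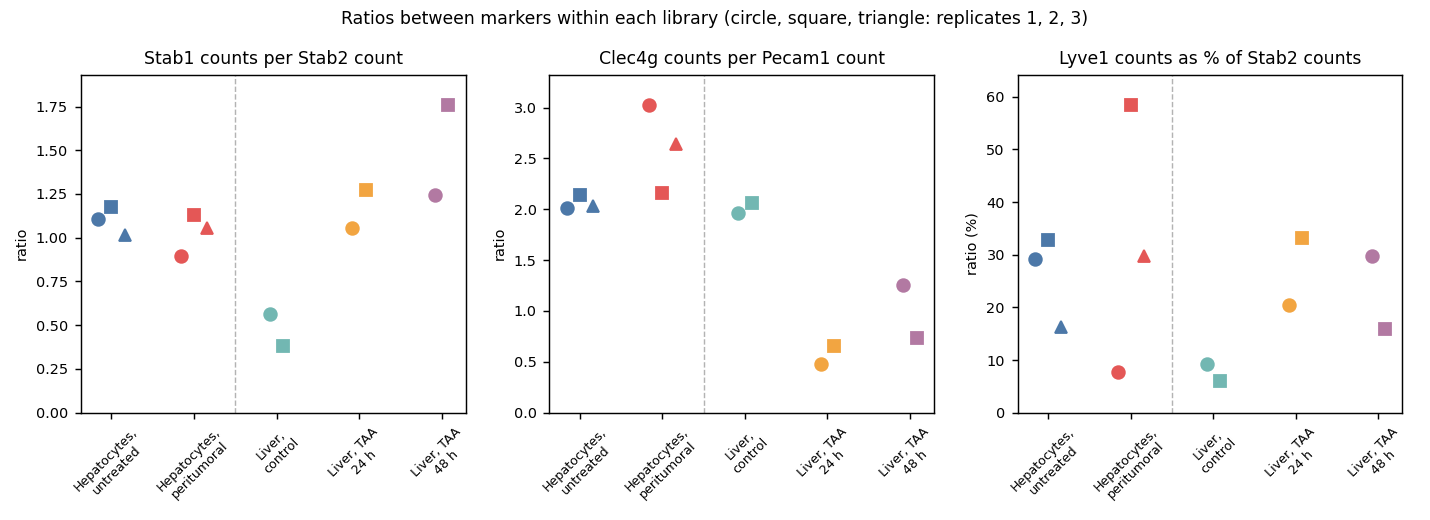
Ratios of counts within each library: Stab1 per Stab2, Clec4g per Pecam1, and Lyve1 as a percentage of Stab2. The 2 control livers have the lowest Stab1 per Stab2 (0.382 and 0.563) and the 4 TAA livers the lowest Clec4g per Pecam1 (0.479 to 1.26).

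Markers of other cells moved after TAA too. All 12 macrophage markers rose at 48 h and 7 did at 24 h, with summed levels of 82.9 to 187.2 RPM in controls, 489.1 to 641.8 RPM at 24 h and 1165 to 1894 RPM at 48 h. Of 10 stellate cell and fibroblast markers 7 rose at 24 h and 8 at 48 h, from 95.7 to 161.5 RPM summed to 477.3 to 500.5 and 1311 to 1808 RPM. Of 10 hepatocyte markers 4 fell at 24 h and 5 at 48 h. Platelet markers, which bear on Pecam1, were at 0.977 to 2.26 RPM summed in controls and 6.21 to 15.4 RPM after TAA, with 2 and 3 of 3 tested genes called higher. Bile duct markers rose in 4 of 5 tested genes at 24 h and 2 of 5 at 48 h, from 35.4 to 41.6 RPM summed to 122.1 to 138.2 and 183.9 to 279.6 RPM. Both neutrophil markers tested rose at both times, from 0 to 0.0781 RPM summed to 3.87 to 6.63 RPM at 24 h and 2.90 to 3.62 RPM at 48 h. T and NK cell markers summed to 0.0751 to 0.156 RPM in controls, 0.876 to 0.878 RPM at 24 h and 0.519 to 1.45 RPM at 48 h, and the 1 tested T cell marker, Cd3e, had 8 and 12 counts at 24 h against 0 and 0 in controls. B cell markers summed to 0.150 to 0.937 RPM in controls, 0.559 to 0.584 RPM at 24 h and 1.29 to 1.56 RPM at 48 h, so the 48 h libraries were above both controls, and Cd79b, the only one tested, had adjusted p-values of 0.389 and 0.156. Their part in the marker values was not tested.

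Over all 5 groups, with the 12 libraries scaled together, the peritumoral mean was the highest for every marker. The control livers were lowest for 8 of the 10, and untreated hepatocytes for Stab2 and Kdr. For Stab1 the order was control liver (23.3 ± 3.56 CPM, SD, n = 2), untreated hepatocytes (42.6 ± 11.1, n = 3), 24 h (73.1 ± 10.3, n = 2), 48 h (101.7 ± 4.88, n = 2) and peritumoral hepatocytes (177.3 ± 51.6, n = 3). No neighbours in that order overlapped. For Pecam1 the order was control liver (10.9 ± 3.59 CPM), untreated hepatocytes (16.3 ± 2.83), 48 h (34.4 ± 0.426), 24 h (46.8 ± 14.8) and peritumoral hepatocytes (65.6 ± 25.9), and only the last 2 overlapped. For Dnase1l3 the first 4 groups, from 42.5 ± 5.22 CPM in control livers to 59.7 ± 13.1 CPM at 24 h, each overlapped the next, and the peritumoral group (219.6 ± 115.9 CPM) stood clear. Clec4g ran from 21.8 ± 6.47 CPM in control livers to 34.3 ± 12.3 CPM at 48 h, with overlaps except between 24 h and untreated hepatocytes, and the peritumoral group was at 172.3 ± 74.4 CPM. Peritumoral libraries overlapped the next group for Lyve1 and Pecam1 and for no other marker.

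Per kilobase of exon, on the same scaling, Clec4g was the most abundant of the 10 in untreated hepatocytes (13.7 ± 2.85 CPM per kb) and peritumoral hepatocytes (70.0 ± 30.2). Dnase1l3 followed, at 9.02 ± 2.17 and 42.6 ± 22.5 CPM per kb. In untreated hepatocytes Pecam1 was lowest, at 2.61 ± 0.455 CPM per kb. In control livers Clec4g (8.87 ± 2.63) and Dnase1l3 (8.25 ± 1.01) were within each other's spread, and Lyve1 was lowest, at 1.29 ± 0.231 CPM per kb. These lengths are the union of all annotated exons and overstate the transcript where long isoforms are not used.

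The 10 markers were compared with other endothelial lists, which were drawn up with earlier results of these data known. These lists share genes, so their counts are not independent of each other. In the peritumoral comparison 15 of 16 other sinusoidal genes rose, with a median of 2.09, among them Maf, a transcription factor of sinusoidal endothelium (2.19 ± 0.22, adjusted p = 0.00308), and Bmp6, an iron-regulating ligand (4.02 ± 0.44, adjusted p = 0.00331). The coagulation factor gene F8 was the one that did not pass (1.34 ± 0.45, adjusted p = 0.0655). After TAA 9 of these 16 rose at 24 h and 13 at 48 h. Ehd3, a membrane-trafficking gene, fell at 24 h by 0.68 ± 0.17 (adjusted p = 0.0200). At 48 h it was at 0.19 ± 0.17 (adjusted p = 0.388). The fatty acid receptor gene Cd36 rose by 1.02 ± 0.21 at 24 h (adjusted p = 0.01) and by 2.47 ± 0.22 at 48 h (adjusted p = 0.000401). Gata4, a sinusoidal transcription factor, rose in the peritumoral group by 0.60 ± 0.16 (adjusted p = 0.0360) and did not pass after TAA. What part other cell types had in the values of these 16 genes was not tested.

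Of 20 pan-endothelial genes 19 rose in the peritumoral comparison (median 2.16), 14 at 24 h (1.17) and 16 at 48 h (1.48). S1pr1, the sphingosine-1-phosphate receptor gene, fell by 0.89 ± 0.20 at 24 h (adjusted p = 0.0145) and by 0.85 ± 0.20 at 48 h (adjusted p = 0.0138). It held 26.9 to 31.2% of the counts of the 20 genes in untreated and 5.47 to 7.89% in peritumoral hepatocytes, 45.8 and 49.9% in control livers, and 14.3 to 18.9% after TAA, so a ratio of the sinusoidal markers to these genes rests on whether S1pr1 is counted. With it, the 10 sinusoidal markers had 1.33, 1.40 and 1.25 counts per pan-endothelial count in untreated and 1.81, 1.81 and 1.77 in peritumoral hepatocytes, without overlap. With the other 19 genes alone, a setting chosen after seeing the data, they had 1.83, 1.92 and 1.82 in untreated and 1.96, 1.91 and 1.89 in peritumoral hepatocytes, which overlap. Among livers the ratio with S1pr1 was 0.971 and 1.16 in controls, 1.18 and 1.08 at 24 h and 1.24 and 1.03 at 48 h, with overlap among all 3 groups. Without S1pr1 it was 1.94 and 2.13 in controls, 1.38 and 1.34 at 24 h and 1.47 and 1.23 at 48 h, with both times below the controls and overlapping each other. Neither ratio was tested. Cdh5, the cadherin of endothelial junctions, rose by 2.40 ± 0.40 in the peritumoral group (adjusted p = 0.00789), by 2.02 ± 0.26 at 24 h (adjusted p = 0.00189) and by 1.98 ± 0.26 at 48 h (adjusted p = 0.00138).

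The list of genes of continuous vessels and of capillarization, the loss of sinusoidal features, held 9, of which Apln and Aplnr did not pass the filter. Of the other 7, 6 rose in the peritumoral comparison, 5 at 24 h and 6 at 48 h, with medians of 2.32, 1.93 and 2.17. Their summed level was 17.7 to 34.2 RPM in untreated and 161.1 to 175.9 RPM in peritumoral hepatocytes, 18.5 to 28.9 RPM in control livers, 112.4 to 154.4 RPM at 24 h and 153.2 to 180.6 RPM at 48 h. Angpt2, a Tek ligand made by activated endothelium, had 2 and 3 counts in control livers, 207 and 138 at 24 h and 111 and 152 at 48 h. It rose by 5.55 ± 0.39 at 24 h (adjusted p = 0.000412) and 5.19 ± 0.39 at 48 h (adjusted p = 0.000293), sizes that rest on those few control counts. In the peritumoral group it was at 2.14 against 1.15 CPM and did not pass the test (adjusted p = 0.284). Plvap, a diaphragm protein of fenestrae, rose by 2.32 ± 0.39 (adjusted p = 0.00856), 1.93 ± 0.29 (adjusted p = 0.00304) and 2.17 ± 0.29 (adjusted p = 0.00142) in the 3 comparisons. Cd34 rose by 3.94 ± 0.31 in the peritumoral group (adjusted p = 0.00267).

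Among VEGF, angiopoietin and BMP9 signalling genes, 13 of 18 tested rose in the peritumoral comparison, 10 of 19 at 24 h and 14 of 19 at 48 h. Notch1 was among the 13 (3 ± 0.64, adjusted p = 0.0168), at 170.5 ± 159.5 against 21.3 ± 2.89 CPM (SD). The peritumoral mice had been injected with myc-NICD, named for the Notch intracellular domain. Whether it added to the Notch1 counts was not tested. The ligand gene Vegfa, made by hepatocytes among others, was at 150.4 against 147.0 CPM in peritumoral hepatocytes (0.03 ± 0.17, adjusted p = 0.906). After TAA it fell from 208.4 CPM to 121.0 CPM at 24 h (-0.78 ± 0.22, adjusted p = 0.0293) and to 80.3 CPM at 48 h (-1.38 ± 0.22, adjusted p = 0.00304). The receptor genes Flt1 and Flt4 rose at both times, Flt4 by 1.29 ± 0.17 at 24 h (adjusted p = 0.00196) and 1.58 ± 0.17 at 48 h (adjusted p = 0.000712). Gdf2, which encodes BMP9, rose in the peritumoral group by 2.75 ± 0.33 (adjusted p = 0.00389). At 24 h it was at -0.28 ± 0.24 (adjusted p = 0.384), and it rose by 1.21 ± 0.24 at 48 h (adjusted p = 0.00674).

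Of 10 genes that mark positions along the sinusoid, all rose in the peritumoral comparison, 5 at 24 h and 9 at 48 h, with medians of 2.09, 1.34 and 1.55. The 5 called at 24 h were the periportal genes Efnb2 (2.06 ± 0.24, adjusted p = 0.00137), Ntn4 (2.64 ± 0.31, adjusted p = 0.00134) and Dll4 (1.81 ± 0.30, adjusted p = 0.00447) and the pericentral genes Kit (2.19 ± 0.32, adjusted p = 0.00288) and Thbd. At 48 h these 5 were called again, with Ltbp4 and the pericentral genes Wnt9b (2.24 ± 0.58, adjusted p = 0.0186), Rspo3 (1.58 ± 0.44, adjusted p = 0.0238) and Cdh13 (1.88 ± 0.35, adjusted p = 0.00538). Wnt2, at mean levels of 0.911 to 2.09 CPM in the 3 liver groups, was the gene that did not pass at 48 h (0.44 ± 0.46, adjusted p = 0.452), nor at 24 h (-0.73 ± 0.49, adjusted p = 0.269). Periportal and pericentral genes were not tested against each other. Thbd, the pericentral gene of a thrombin receptor, rose by 2.66 ± 0.29 at 24 h (adjusted p = 0.00114) and by 3.49 ± 0.30 at 48 h (adjusted p = 0.000367). Of 5 lymphatic markers, which bear on Lyve1, 2 of 3 tested rose in the peritumoral comparison, 2 of 4 at 24 h and 3 of 4 at 48 h. Flt4 was among them each time, and it is also in the lists of other sinusoidal and of signalling genes. Prox1, the lymphatic transcription factor that hepatocytes also express, fell by 0.66 ± 0.13 at 24 h (adjusted p = 0.00786) and by 0.61 ± 0.13 at 48 h (adjusted p = 0.00775). Ccl21a did not pass the filter among hepatocytes or livers.

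Across the 12 libraries, the genes whose levels most resembled the mean of the 10 markers were Arhgef15 and Gpr116 (Pearson r = 0.986 each), Robo4 (0.985), Il18bp (0.983) and Gpr182 (0.982), among 9945 genes ranked. These r are descriptions over 12 libraries that share group differences and depth. Between pairs of markers r ran from 0.63 (Lyve1 and Dnase1l3) to 0.99, with a median of 0.91. Within the 6 hepatocyte libraries the median was 0.98, and within the 6 livers it was 0.81, with the lowest value, 0.39, for Stab1 and Dnase1l3. Arhgef15 rose by 2.25 ± 0.32 in the peritumoral group (adjusted p = 0.00556), by 0.80 ± 0.24 at 24 h (adjusted p = 0.0357) and by 0.79 ± 0.24 at 48 h (adjusted p = 0.0319).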

How the data were processed

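Polyadenylated RNA of 12 mouse libraries was sequenced after a stranded mRNA kit. The authors deposited raw counts per gene, the input of every test here; their table of normalized values was not used. STAR, DESeq2 and the builds mm10 and GRCm38 are named, without versions or roles, per the submitters' processing notes; neither the annotation nor the use of strand in counting is stated in the sources used here. Of 41128 gene IDs, 40254 were found in GENCODE release M21.

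The tests used edgeR 4.0.16 under R 4.3.3, with TMM factors, filterByExpr (minimum count 10, total 15), and the two-sided quasi-likelihood F test with the newer, non-legacy dispersion method, adjusted p under 0.05, with the SE taken as the fold change over the root of F. The 6 hepatocyte libraries formed 1 fit (13442 genes) and the 6 livers another (13497). Biological coefficients of variation were 0.358 and 0.188. Groups and replicate numbers come from sample titles. Replicates of every group differed by more than sampling noise. RPM are counts scaled to the library total.

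The members and the 15 gene lists were chosen with earlier results of these data known. Named genes are all members, at most the 3 genes of each list with the smallest p in a comparison, and the 5 genes of most similar level (Pearson r of log2(CPM + 0.5), mean of at least 5 CPM, no predicted or clone names). F8, Ehd3, Gata4, S1pr1, Vegfa, Notch1, Wnt2, Dll4, Kit, Ltbp4, Wnt9b, Rspo3 and Cdh13, and values of other named list genes in further comparisons, were picked after their values were seen. Alternatives were RLE, upper-quartile or no factors, no count filter or a minimum of 50, DESeq2 1.42.0, limma 3.58.1 (log2 of RPM plus 0.5), a fit of all 12 libraries, a block for the replicate number, the legacy method and pan-endothelial sums without S1pr1 (both added after seeing the data), a p under 0.01 in the peritumoral comparison, and each library left out. The scripts were tested on simulated data.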

Additional observations from a re-analysis of the deposited data

How the results depend on the processing

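With 2 or 3 libraries a group, single libraries decide many calls. Of the member values against an untreated or control group, none was reversed in the peritumoral comparison, and 8 members kept their call in all 16 alternatives there. With each library left out, members called higher ranged from 2 to 6 at 24 h and from 3 to 7 at 48 h, and from 8 to 10 in the peritumoral comparison. With 12 libraries in 1 fit 3 members were called at 48 h. The share of all genes called higher is not given for these alternatives or for the replicate block below. Calls over the whole table changed with the setting too. Between the times 1 member was called with DESeq2 and 1 with no scaling factors, against 0 by edgeR (1 at an unadjusted p under 0.05).

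Genes called over the whole table numbered 3930 in the peritumoral comparison, 2594 with a minimum count of 50, 5941 with 12 libraries in 1 fit, 2510 with limma, and 1359 to 3827 with a library left out (1359 and 1494 without untreated replicates 1 and 2). At 24 h they numbered 5644, 3255 with 12 libraries in 1 fit, and 2821 (without the first TAA library) to 4596 with a library left out. Between the times they numbered 989, 1519 with DESeq2, 654 with no count filter, 131 with 12 libraries in 1 fit, and 0 to 256 with a library left out. The share of calls that were higher went from 65.1% to 80.1% (upper-quartile), 92.7% (no factors) and 94.5% (limma) in the peritumoral comparison, from 51.0% to 62.8%, 83.3% and 84.1% at 24 h, and from 51.1% to 62.4%, 88.8% and 89.1% at 48 h. Between the times it went from 67.7% to 87.6% with no factors and 90.1% with limma. With 12 libraries in 1 fit it was 62.4% at 24 h and 61.4% at 48 h; in the peritumoral comparison it was 75.9% with the replicate block.

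With a library left out, the log2 change ranged from -0.07 to 0.48 for Stab2 and from -0.16 to 0.44 for Clec4g at 24 h, and from -0.37 to 0.65 for Dnase1l3 at 48 h. Between the times it ranged from -0.13 to 0.46 for Stab2, -0.73 to 0.56 for Lyve1, -0.49 to 0.26 for Fcgr2b, -0.15 to 0.44 for Oit3, -0.75 to 0.28 for Dnase1l3 and -0.30 to 0.19 for Ptprb. With no factors it was 0.06 for Fcgr2b, 0.06 for Dnase1l3 and 0.17 for Ptprb, and with limma 0.09 for Fcgr2b and 0.16 for Ptprb. None of these passed the test in the main analysis. The cause was not tested.

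No pairing by replicate number was seen among hepatocytes: same-numbered libraries correlated at -0.22, 0.17 and 0.10 in their deviations from the group means. So few libraries cannot exclude pairing. In the livers, with 2 libraries a group, the deviations mirror each other, so this check says nothing there. With the replicate block the Lyve1 change was 2.13 (adjusted p = 0.0934) in the peritumoral comparison, the Clec4g change at 48 h was 0.56 (adjusted p = 0.0432), and Lyve1 between the times was -0.06; members called were 9, 6, 8 and 0.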
